A study of Rattus norvegicus with 6 samples.

Results

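Interneuron subtype marker genes are the transcripts by which the local inhibitory neurons of the forebrain are divided into classes. The 10 genes described here were chosen by symbol (Pvalb, Sst, Vip, Calb1, Calb2, Reln, Lamp5, Nos1, Lhx6 and Ndnf), and all 10 were found among the 38445 NCBI genes of the count table. Their transcripts were measured by RNA-seq in amygdala tissue (central, medial and basolateral nuclei) from adult male rats of the Sprague Dawley/WT strain that received an intraperitoneal injection of saline (control) or of ethanol at 1 g/kg (acute ethanol), with the tissue taken 1 h later. Each library was made from the combined RNA of 2 rats, which gave 3 libraries for the 6 rats of a group, and a library's value stands for its pool. The rats were wild-type and no cells were sorted, so the values describe whole tissue. In whole tissue, fewer cells of a class and less RNA per cell cannot be told apart.

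Interneurons release GABA onto neighboring cells and are told apart by the peptides, calcium-binding proteins and other proteins they make. Cells of the medial ganglionic eminence, a transient structure of the embryonic brain, express the transcription factor gene Lhx6 and give rise to the parvalbumin and somatostatin classes, whereas cells of the caudal eminence give rise to the VIP class and to many reelin-positive cells. In the amygdala several of these markers are not confined to interneurons: Sst is also made by GABA projection neurons of the central nucleus, and Calb1 and Reln by some projection neurons.

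Each library held between 62576504 and 70755739 reads assigned to genes, and 3 counts corresponded to 0.0424 to 0.0479 CPM (counts scaled to a common library size, with TMM). The members had between 680 and 17947 counts in a library, so all 10 lay far above that floor and all 10 passed the filter on low counts. The GABA-synthesizing enzyme gene Gad1 was measured at 407 ± 52.0 CPM (SD, n = 3 libraries) in controls, the glutamate transporter gene Slc17a7 at 413 to 770 CPM and the central amygdala and striatal peptide gene Penk at 144 to 224 CPM, so markers of inhibitory and excitatory forebrain neurons were present in every control library. Libraries stood apart in markers of neighboring tissue. The choroid plexus list summed to 499 to 1081 CPM in controls and to 10.7, 11.4 and 461 CPM in ethanol replicates 1, 2 and 3, and the hypothalamic list to 9.97 to 108 CPM in controls and to 22.8, 13.7 and 315 CPM in the ethanol libraries.

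Short regulatory sequences of 3 members are shown because the cAMP response element, the binding sequence of CREB, was first studied in peptide genes of this kind and CREB signaling in the amygdala belongs to the background of the study. RefSeq promoters of GRCr8 (250 bases before to 50 after the annotated start) were matched for 7 of the 10 members, and those of Calb1, Calb2 and Ndnf were not used here. The element was searched on both strands as TGACGTCA and as its core TGACGTC, which lies within the former. The core was found in the promoters of Sst, Vip and Nos1 and in 3.22% of all 33469 promoters, and the full element in Sst and Nos1 and in 1.83% of all. The stretches below run 5′ to 3′ on the strand of the gene, with the core or full element in capitals.
Sst (GRCr8, chr11:90461528-90461595, plus strand): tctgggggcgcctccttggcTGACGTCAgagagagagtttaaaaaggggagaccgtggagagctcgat
Vip (GRCr8, chr1:44470363-44470429, plus strand): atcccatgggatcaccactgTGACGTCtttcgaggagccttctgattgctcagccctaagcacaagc
Nos1 (GRCr8, chr12:44371799-44371976, minus strand): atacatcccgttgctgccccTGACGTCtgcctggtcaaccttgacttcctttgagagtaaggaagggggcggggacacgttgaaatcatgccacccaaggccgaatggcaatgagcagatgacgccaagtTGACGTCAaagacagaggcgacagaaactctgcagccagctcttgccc

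In Sst the element spans bases 3 to 10, with the annotated start counted as base 1. The core of Vip begins 97 bases before the start, and the matches of Nos1 begin 119 and 9 bases before it. These are matches of letters, and no binding was measured. The positions depend on the annotated start, which was not checked against these data.

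Per exonic length the members spread over a wide range, which was compared as RPKM (the same scaled CPM divided by the kilobases of annotated exon). Sst was highest with 230.1 ± 22.3 RPKM (SD over all 6 libraries) and ranked 233rd of the 18141 genes tested. Calb1 followed with 141 ± 19.6 RPKM, Calb2 with 73.3 ± 11.4 RPKM and Lamp5 with 27.9 ± 2.03 RPKM. Each of these 4 genes was above the next in all 6 libraries with ranges that did not overlap, and Lamp5 was likewise above Pvalb. Pvalb (15.7 ± 2.65 RPKM), Nos1 (15.6 ± 0.957 RPKM) and Vip (14.0 ± 2.87 RPKM) formed a middle group whose order was not settled by these libraries. Pvalb was above Nos1 in 3 of 6 libraries and Nos1 above Vip in 5 of 6. Lhx6 came below Vip in all 6 libraries, at 8.63 ± 1.16 RPKM, although their ranges overlapped. Reln (4.85 ± 0.576 RPKM) and Ndnf (3.95 ± 0.759 RPKM) were lowest and were in this order in 5 of 6 libraries. Since RPKM divides by all annotated exons, a gene with unused exons is placed too low by it.

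**Figure D1:**
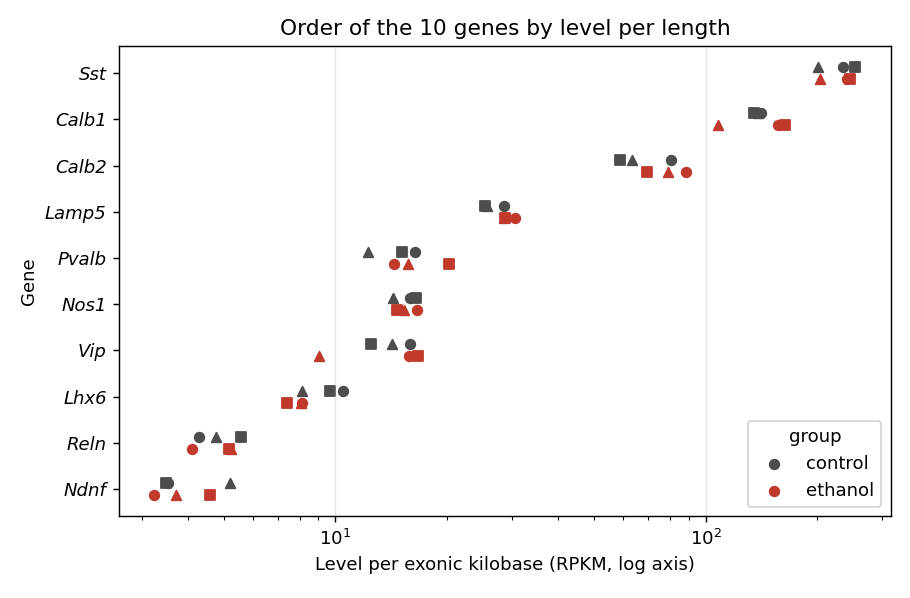
Level per exonic kilobase (RPKM, log axis) of the 10 genes in each library, ordered by their mean, with controls in gray and ethanol in red and circle, square and triangle for replicates 1, 2 and 3. Sst lies between 201 and 254 RPKM and Ndnf between 3.24 and 5.19 RPKM, and Pvalb, Nos1 and Vip overlap.

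Acute ethanol and control libraries were compared to ask whether the transcripts of interneuron classes differed 1 h after ethanol. No member passed the study's threshold, an adjusted p below 0.2 (0 of 10, beside a background of 0% of the 18141 genes tested, from the quasi-likelihood test of edgeR after Benjamini-Hochberg correction), and the adjusted p was 1.0 for each. At an unadjusted p below 0.05, edgeR gave 1 member of 10, Lhx6, which was lower after ethanol, against 753 genes or 4.15% of all genes, 2.58% lower and 1.57% higher. DESeq2, limma-voom and edgeR's likelihood ratio test also gave 0 members at the adjusted threshold and 1 at the unadjusted one. Over all genes the adjusted threshold was passed by 81 genes with DESeq2, 77 with the likelihood ratio test and 0 with limma-voom. The paper also reports genes past this threshold from its own fit of these libraries. The background of 0% therefore belongs to the quasi-likelihood fit used here. The groups did not overlap for 2 members of 10, Lhx6 (lower) and Lamp5 (higher), against 8.85% of all genes in both directions, 5.19% lower and 3.65% higher. The median log2 fold change of the members was -0.0026, with 5 above and 5 below 0, and that of all genes tested was 0.0064.

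**Figure D2:**
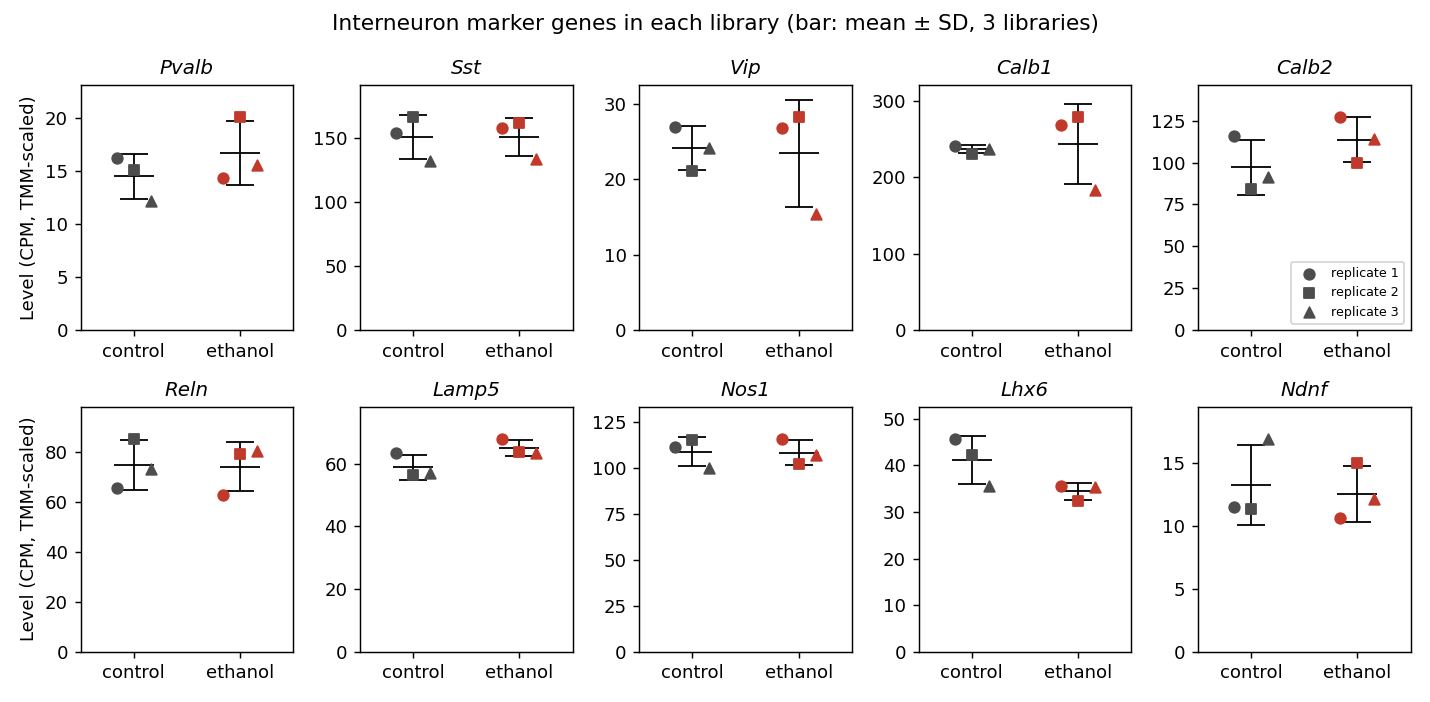
Level of each gene (CPM scaled by TMM, linear axes from 0) in the 3 control and 3 ethanol libraries, with the mean and SD as bars and circle, square and triangle for replicates 1, 2 and 3. The groups overlap for every gene but Lhx6 and Lamp5, and ethanol replicate 3 is the lowest point for Vip and Calb1.

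Lhx6 (NCBI gene 311901, Rnor_6.0 chromosome 3 from 15409349 to 15433504, minus strand, 10 exonic blocks) encodes the LIM-homeodomain factor that specifies interneurons of the medial ganglionic eminence. Its level was 45.7, 42.2 and 35.51 CPM in the control libraries and 35.47, 32.4 and 35.4 CPM in the ethanol libraries. All 3 ethanol libraries were lower than all 3 controls, but control replicate 3 and ethanol replicate 1 were only 0.0397 CPM apart, with exact 95% Poisson intervals of 34.05 to 37.00 and 34.02 to 36.95 CPM that cover counting error only. The log2 fold change was -0.26 (standard error 0.10, 95% interval -0.49 to -0.03), with an unadjusted p of 0.031 and an adjusted p of 1.0 from edgeR's quasi-likelihood test. The 2-sided exact permutation test gave p = 0.1, the smallest that 3 libraries against 3 allow. The interval corresponds to 0.714 to 0.979 times the control level. The unadjusted p was above 0.05 without control replicate 1 (0.107), control replicate 2 (0.0794), ethanol replicate 1 (0.0511) or ethanol replicate 2 (0.0967) in the same edgeR test, and below it without control replicate 3 (0.0037) or ethanol replicate 3 (0.0418). The log2 fold change in these 6 fits was, in the same order, -0.18, -0.24, -0.28, -0.22, -0.35 and -0.28. Which cells of the tissue carried the Lhx6 transcript was not measured, so the values are not specific to interneurons.

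Pvalb (gene 25269, chromosome 7 from 119428657 to 119443674, minus strand) encodes the calcium buffer parvalbumin of fast-spiking cells. It measured 16.3, 15.1 and 12.2 CPM in controls and 14.4, 20.1 and 15.6 CPM after ethanol. Ethanol replicate 2 was the highest of the 6 libraries and control replicate 3 the lowest, and the groups overlapped. Pvalb had a log2 fold change of 0.20 (standard error 0.15, 95% interval -0.15 to 0.56), which was 0.046 without ethanol replicate 2 and 0.09 without control replicate 3.

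Sst (gene 24797, chromosome 11 from 80358172 to 80359449, plus strand, 2 exonic blocks) encodes the inhibitory peptide somatostatin. Its level was 154, 167 and 132 CPM in controls and 158, 162 and 134 CPM after ethanol. Both groups had a mean of 151 CPM, with an SD of 17.6 and 15.1, and in both groups replicate 3 was the lowest. Sst had a log2 fold change of 0.00088 (standard error 0.11), and its 95% interval from -0.25 to 0.25 spans 0.843 to 1.19 times the control level.

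Within each library, Pvalb and Sst, markers of the 2 classes that descend from Lhx6-expressing cells, were set against Lhx6 itself, per exonic length. Since Sst is also made by projection neurons of the central nucleus, the ratios compare transcripts of whole tissue and not classes of cells. The ratio of Pvalb to Lhx6 was 1.57, 1.57 and 1.51 in controls and 1.78, 2.74 and 1.94 after ethanol, so the groups did not overlap. The ratio of Sst to Lhx6 was 22.5 to 26.3 in controls and 29.7, 33.3 and 25.2 after ethanol, where ethanol replicate 3 lay inside the control range. Of the 6 ratios computed between members, Pvalb to Lhx6 was the only one whose groups did not overlap. The groups overlapped for Sst to Pvalb (12.2 to 16.7 over all libraries), Sst to Vip (14.1 to 22.6), Pvalb to Vip (0.858 to 1.74) and Calb1 to Calb2 (1.36 to 2.35). The ratios were chosen after the levels were seen, and those to Lhx6 share its values, so they are given without a test and without a share over all genes.

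Nos1 (gene 24598, chromosome 12 from 44214949 to 44405530, minus strand, 31 exonic blocks) encodes the neuronal nitric oxide synthase, found in long-range somatostatin cells and in neurogliaform cells. It measured 111, 115 and 100.2 CPM in controls and 116, 102 and 107 CPM after ethanol. Over all 6 libraries of both groups it had the smallest range of the 10 members, with a highest library 1.16 times the lowest. Its log2 fold change was -0.0061 (standard error 0.08, 95% interval -0.18 to 0.17), and the groups overlapped.

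Among the other calcium-binding proteins, Calb2 (calretinin, gene 117059, chromosome 19 from 41482743 to 41509617, plus strand) measured 116, 84.4 and 91.2 CPM in controls and 127, 100.01 and 114 CPM after ethanol. Control replicate 1 lay above ethanol replicates 2 and 3, so the groups overlapped. The log2 fold change of 0.23 (standard error 0.13, 95% interval -0.08 to 0.54) came with an unadjusted p of 0.123 from edgeR and p = 0.3 from the exact permutation test. Without control replicate 1 it was 0.37, with an unadjusted p of 0.0146 and an adjusted p of 1.0.

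Calb1 (calbindin, gene 83839, chromosome 5 from 29538380 to 29562774, plus strand) measured 241, 231 and 237 CPM in controls and 268, 279 and 184 CPM after ethanol. The 3 controls were close together, and the ethanol libraries lay on both sides of them. For Calb1 the log2 fold change was 0.04 (standard error 0.15, 95% interval -0.30 to 0.38). Without ethanol replicate 3 it was 0.21, with an unadjusted p of 0.0070 and an adjusted p of 0.374 from the same edgeR test.

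Vip (gene 117064, chromosome 1 from 42169307 to 42177582, plus strand, 7 exonic blocks) encodes the peptide of interneurons that mainly contact other interneurons. It measured 27.0, 21.1 and 24.1 CPM in controls and 26.8, 28.3 and 15.3 CPM after ethanol. As for Calb1, ethanol replicate 3 was the lowest library, and the other ethanol libraries were near or above the highest control. For Vip the log2 fold change was -0.04 (standard error 0.22, 95% interval -0.54 to 0.46), the widest interval of the 10 members. Without ethanol replicate 3 it was 0.19, with an unadjusted p of 0.112 from edgeR.

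Ethanol replicate 3 also had the lowest level of the pallial glutamatergic neuron gene Neurod6, at 10.96 CPM against 23.9 to 55.7 CPM in the other 5 libraries. The same library had the highest level of the hypothalamic peptide gene Pmch, at 207 CPM against 2.12 to 14.5 CPM, and the largest oligodendrocyte sum, at 9225 CPM against 3279 to 7939 CPM. The pallial list as a whole, at 486 CPM there, was as low in control replicate 1, at 483 CPM, where Vip and Calb1 were not low. The part of these markers in the values of Vip and Calb1 was not tested.

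**Figure D3:**
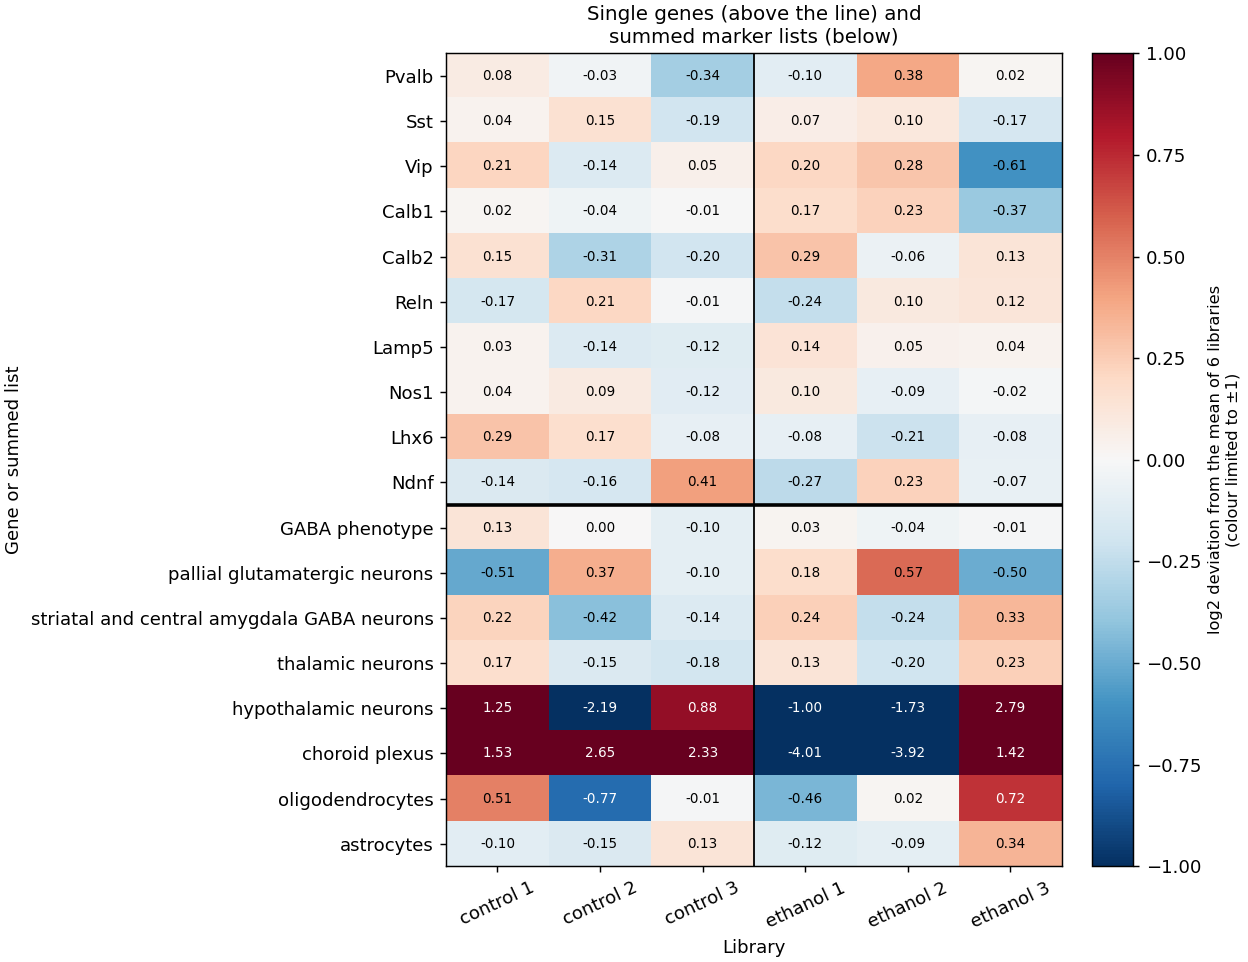
Deviation of each gene and of 8 summed marker lists from its mean over the 6 libraries, on the log2 scale, with one column per library and the value written in each cell. Vip and Calb1 are lowest in ethanol replicate 3, by -0.61 and -0.37, where the pallial list is at -0.50 and the hypothalamic list at 2.79.

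Reln, Lamp5 and Ndnf mark neurogliaform and related cells. Reln (gene 24718, chromosome 4 from 9347533 to 9774257, plus strand, 66 exonic blocks) encodes the secreted glycoprotein reelin and measured 65.4, 85.2 and 73.0 CPM in controls and 62.7, 78.9 and 80.2 CPM after ethanol. Ndnf (gene 312401, chromosome 4 from 96528830 to 96565780, plus strand) encodes a secreted neurotrophic factor and measured 11.5, 11.4 and 16.9 CPM in controls and 10.6, 14.97 and 12.1 CPM after ethanol. In both genes replicate 1 of the ethanol group was the lowest of the 6 libraries, and the groups overlapped. Their log2 fold changes were -0.012 for Reln (standard error 0.12, 95% interval -0.30 to 0.27) and -0.08 for Ndnf (standard error 0.19, 95% interval -0.51 to 0.35).

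Lamp5 (gene 362220, chromosome 3 from 129012677 to 129031522, plus strand) encodes a lysosome-associated membrane protein of GABA nerve endings. It measured 63.3, 56.3 and 56.9 CPM in controls and 68.0, 63.8 and 63.4 CPM after ethanol. The ethanol libraries were all above the controls, by 0.136 CPM between control replicate 1 and ethanol replicate 3. The log2 fold change was 0.15 (standard error 0.07, 95% interval -0.01 to 0.30), with an unadjusted p of 0.0597 and an adjusted p of 1.0 from edgeR's quasi-likelihood test and p = 0.1 from the exact permutation test. With library size alone in place of TMM the groups overlapped, since ethanol replicate 2 was then at 62.3 CPM and control replicate 1 at 63.9 CPM.

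Markers of the choroid plexus and of ependyma were lower on average after ethanol, though for some of them the groups overlapped. All 5 tested choroid plexus genes had a log2 fold change below 0 (median -1.85, 3 of them with an unadjusted p below 0.05), with the thyroid hormone carrier gene Ttr at 462 to 996 CPM in controls and 5.42, 4.34 and 425 CPM after ethanol, and Otx2, which was not tested, at 1 count in control replicate 2 and 0 in the other libraries. Clic6 had a log2 fold change of -1.85 with overlapping groups, at 11.3 CPM in control replicate 1 and 12.9 CPM in ethanol replicate 3. The 4 ependyma and cilia genes summed to 24.1 to 32.9 CPM in controls and to 17.4 to 22.01 CPM after ethanol. All 4 were lower at an unadjusted p below 0.05. Among the 4 were the cilia regulator gene Foxj1 (-0.48, with overlapping groups) and Ccdc146 (-0.71). The share of all genes tested that was lower at that p was 2.58%, beside these 4 of 4 and the 3 of 5 choroid plexus genes. None of the 9 passed the adjusted threshold in edgeR's quasi-likelihood test, and their part in the values of Lhx6 and Lamp5 was not tested.

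**Figure D4:**
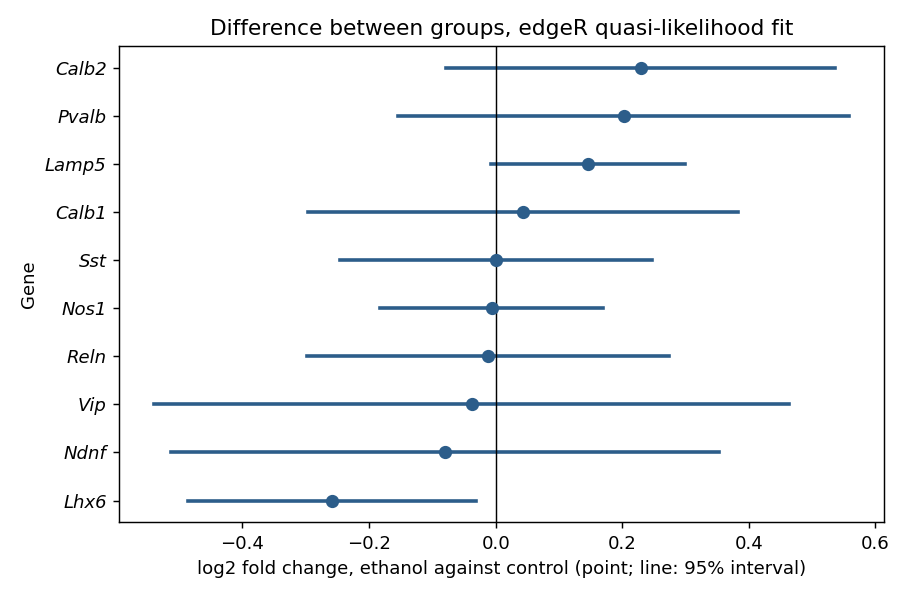
The log2 fold change of each gene, ethanol against control, from edgeR's quasi-likelihood fit with its 95% interval. The interval of Lhx6 (-0.49 to -0.03) lies below 0 before adjustment and the other 9 include 0, with Vip the widest (-0.54 to 0.46).

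Biological spread differed between members. The biological coefficient of variation, edgeR's estimate of spread beyond counting, was 0.191 for Vip, 0.171 for Ndnf and 0.143 for Pvalb, where the trend over all genes of like abundance was 0.108, 0.129 and 0.121. It was 0.0725 for Lamp5 and 0.0783 for Nos1, below their trends of 0.0902 and 0.0884.

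Other genes of the interneuron program were read from 5 lists with 43 genes, of which 42 were tested. None had an adjusted p below 0.2 in edgeR's quasi-likelihood test. In the same test 2 had an unadjusted p below 0.05, both higher after ethanol, beside 4.15% of all genes tested (1.57% higher). Of the 42, 16 had a log2 fold change above and 26 below 0. Their median was -0.037, beside 0.0064 for all genes.

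The 4 genes of the GABA phenotype had a median log2 fold change of -0.045, with Gad1 at -0.08. The 16 interneuron transcription factors had a median of -0.078, 14 of them below 0 beside 8602 of the 18141 genes tested, and 0 of the 16 had an unadjusted p below 0.05. Nr2f2, a factor of caudal-eminence cells, was at -0.08, and Dlx1, a factor shared by forebrain GABA neurons, at -0.16. These 2 had the highest levels per length on that list, and the summed list was 504 to 543 CPM in controls and 452 to 518 CPM after ethanol.

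Across the 7 parvalbumin-class genes the log2 fold change had its median at 0.055, with 6 above and 1 below 0. The one below 0, the tachykinin gene Tac1, had a log2 fold change of -0.38 (unadjusted p = 0.0521, edgeR) and the fast potassium channel gene Kcnc1 one of 0.06. Cox6a2, a subunit of cytochrome oxidase, had one of 0.79 (standard error 0.30, unadjusted p = 0.0331, edgeR) from 0.597, 0.493 and 0.599 CPM in controls to 0.577, 1.03 and 1.31 CPM after ethanol, with overlapping groups. The 6 tested somatostatin-class genes had a median of 0.04, with Elfn1, which shapes synapses onto somatostatin cells, at -0.0036 and the NMDA receptor subunit gene Grin3a at 0.18. The 9 VIP, CCK and neurogliaform genes had a median of -0.015, with 4 above and 5 below 0. Among them Id2, an inhibitor of helix-loop-helix factors that neurogliaform cells express, had a log2 fold change of 0.18 (standard error 0.07, unadjusted p = 0.0318, edgeR) from 61.6, 56.9 and 59.5 CPM to 61.8, 68.9 and 71.2 CPM. Its groups were apart by the gap between 61.6 and 61.8 CPM only. The peptide gene Cck, of the same list, was at 0.18 with overlapping groups.

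The genes of other cell types gave medians of 0.13 (pallial glutamatergic neurons, 6 genes), 0.20 (striatal and central amygdala GABA neurons, 10), -0.08 (thalamic neurons, 4), 0.03 (hypothalamic neurons, 6), 0.19 (oligodendrocytes, 5), 0.13 (astrocytes, 4), -0.07 (microglia, 4) and -0.07 (endothelium and meninges, 5). None of these genes passed the adjusted threshold in edgeR's quasi-likelihood test. In the same test 2 had an unadjusted p below 0.05 (Tbr1 at 0.55 and Dcn at -0.69), beside 4.15% of all genes tested. Of the most abundant genes on these lists, the log2 fold change was 0.18 for Slc17a7, 0.07 for Neurod6, 0.18 for Penk, 0.34 for Ppp1r1b, 0.24 for Slc17a6, -0.04 for Ntng1, 3.21 for Pmch, -0.32 for Avp and 0.24 for Mbp. It was 0.07 for Aqp4, -0.03 for Slc1a3, 0.11 for Csf1r, -0.08 for P2ry12, -0.09 for Flt1 and 0.05 for Cldn5, and the groups overlapped for each of these genes. Unlike the choroid plexus sums, the summed levels of each of these 8 lists overlapped between the groups.

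For the 3 classic classes, the genes whose log2 CPM over the 6 libraries was most like the marker's were sought among 16657 genes with a symbol. Pvalb was followed most closely by Znhit1, Mmadhc and Bub3 (Pearson r of 0.989, 0.986 and 0.986), Sst by Glyr1, Spdya and Sec23ip (0.999, 0.996 and 0.992) and Vip by Rars1, LOC102549893 and Srl (0.998, 0.995 and 0.995). These are the highest of many correlations over 6 points and are given as a description. None of the 9 genes is on the interneuron lists, and Rars1, like Vip, was lowest in ethanol replicate 3 (39.5 CPM against 42.9 to 45.7 CPM).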

How the data were processed

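RNA-seq of 6 amygdala libraries (3 control, 3 ethanol, each of RNA from 2 rats) was analyzed. The authors prepared stranded mRNA libraries, trimmed the single-end reads of 100 nt, aligned them with STAR 2.7.0f and deposited raw counts per gene from featureCounts (Subread 1.6.3, reverse-stranded, exons of the Rnor_6.0 NCBI annotation), without normalization. With the options in the file headers, reads that align to several places or overlap several genes are not counted, and the exons of the 10 members share no base with another gene, on either strand. Symbols were matched for 29322 of 38445 gene identifiers through a RefSeq table of GRCr8, from which no gene coordinates were taken.

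Counts were filtered with filterByExpr (at least 10 counts, 15 in total, 18141 genes kept), scaled by TMM (factors 0.976 to 1.01) and compared between groups with edgeR 4.0.16 (quasi-likelihood F test, R 4.3.3), with Benjamini-Hochberg adjustment over all genes tested and the threshold of 0.2 that the study uses. The standard error was the absolute log2 fold change divided by the square root of F, and the 95% interval used the test's degrees of freedom. The 2-sided exact permutation test used log2 CPM (prior count 2) over 20 label swaps. The method was also run on simulated counts, in which the changed genes had larger changes than any member. That run therefore does not tell how well differences of the members' size are found. Alternatives were the likelihood ratio test, DESeq2 1.42.0, limma-voom (limma 3.58.1), other scalings and filters, the replicate number as a block and each library left out.

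Counts of library pairs within a group differed by more than sampling noise (chi-square per degree of freedom 14.3 to 67.6). The labels' treatment protocol gives 6 rats per group, whose RNA was pooled by 2 to make the 3 libraries.

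The members, lists and tests were chosen with earlier results of these data known. Named genes were the members, the 2 genes with the highest level per length and any with an unadjusted p below 0.05 on each interneuron list, the 2 genes with the highest CPM on each other list, and the 3 genes most like Pvalb, Sst and Vip. Otx2, Tbr1, Dcn, Npy, Chat and Crhbp, and the ratios between members, were chosen after their values were seen. Some genes that the rule names are not reported here. The intervals of the log2 fold changes include the spread between libraries. Poisson intervals and floors cover counting error only, because reads that carry no molecular identifier can be copies of 1 molecule.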

Additional observations from a re-analysis of the deposited data

How the results depend on the processing

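No member passed the adjusted threshold under any of the 14 alternatives, and the adjusted p of Lhx6 ran from 0.546 to 1.0. Of 140 refitted member fold changes, 121 kept their direction and their side of the threshold and 19 turned direction, in Sst, Vip, Calb1, Reln, Nos1 and Ndnf. For Sst the log2 fold change was -0.0016 with DESeq2, -0.0017 with its size factors in edgeR, -0.027 with library size alone and -0.0046 with the filter of 1 CPM. With each library left out in turn, it ran from -0.086 to 0.082 for Sst, -0.19 to 0.19 for Vip, -0.064 to 0.21 for Calb1, -0.11 to 0.10 for Reln, -0.063 to 0.038 for Nos1 and -0.22 to 0.13 for Ndnf, and in Pvalb (0.05 to 0.30), Calb2 (0.14 to 0.37), Lamp5 (0.11 to 0.19) and Lhx6 (-0.35 to -0.18) it kept its sign. Library size alone moved the median of all genes by -0.026.

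Genes past the adjusted threshold numbered 77 with the likelihood ratio test and 81 with DESeq2, and 0 to 83 with 1 library left out, 83 of them without ethanol replicate 3 and 4 without ethanol replicate 1. At an unadjusted p below 0.05, leaving out 1 library gave 570 to 1629 genes (1629 without ethanol replicate 3), 0 to 2 members (0 without control replicate 2, ethanol replicate 1 or ethanol replicate 2, and 2 without control replicate 1 or ethanol replicate 3) and 0 to 4 other interneuron genes (0 without control replicate 2, 1 without ethanol replicate 2 and 4 without ethanol replicate 3). The filter of 1 CPM in 3 libraries gave 1 other interneuron gene. Cox6a2, which reached 1 CPM in ethanol replicates 2 and 3 only, did not pass that filter and was not tested there. The causes of the other changes in these counts were not tested.

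Both groups carry replicate numbers 1, 2 and 3. Over 14241 genes, each library's deviation from its group mean correlated by 0.0264, 0.388 and 0.211 for the same number. Control replicates 2 and 3 correlated best with the ethanol library of their own number, and control replicate 1 with ethanol replicate 3 (0.305). Whether libraries of the same number share more than the number was not tested. With the replicate block, 3 members (Calb2, Lamp5 and Lhx6, unadjusted p 0.0068, 0.0273 and 0.0283 from edgeR) and 7 other interneuron genes had an unadjusted p below 0.05, beside 1015 of the 18141 genes tested, 0 members and 0 genes overall passed the adjusted threshold, and Lhx6 was at -0.25 and Calb2 at 0.24 on the log2 scale.

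Each member had 680 or more counts in each library, and each group had 3 libraries. What depth contributes to the number of calls was not tested.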

Other observations

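Npy, which many somatostatin interneurons of the forebrain express, was listed at 0 in all 6 libraries and was therefore not tested. The paper cites earlier work in which acute ethanol raised Npy expression in the amygdala, so this 0 is not read as absence of the transcript. Why no read was assigned to the gene was not tested. Chat, the acetylcholine-synthesizing enzyme gene that some VIP cells of the cortex express, ranged from 0.253 CPM in control replicate 2 to 7.95 CPM in control replicate 1, with 4.31 CPM in ethanol replicate 3. The hypothalamic peptide gene Avp was also highest in these last 2 libraries, at 60.3 CPM in control replicate 1 and 69.1 CPM in ethanol replicate 3, against 2.84 CPM in control replicate 2. Crhbp, a binding protein for corticotropin-releasing factor that somatostatin cells express, was lowest in ethanol replicate 3, as Vip and Calb1 were. It measured 8.04 CPM there against 12.7 to 20.1 CPM in the other libraries. Sst and the other tested genes of the somatostatin-class list were each lowest in another library.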
